A study of Mus musculus with 12 samples.

Results

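The genes described here are Atf4, 4 transcription factors that act with it or below it (Atf5, Atf3, Ddit3 and Cebpb), and 5 of its stress targets (Nupr1, Trib3, Ppp1r15a, Ddit4 and Fgf21). They were taken by name, as every probe set annotated with one of these symbols alone. All 10 genes were found among 12393 measured genes, with 15 probe sets among 22626. Atf4 had 3 probe sets, Cebpb, Nupr1 and Trib3 had 2 each, and the other genes had 1. Where a gene had several probe sets, the one with the highest mean of the 12 arrays stands for it, and the others are given beside it.

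ATF4 is a basic leucine zipper (bZIP) transcription factor whose protein is made when translation initiation is slowed by phosphorylation of eIF2α. That phosphorylation follows stresses such as unfolded protein in the endoplasmic reticulum or a shortage of amino acids. ATF4 pairs with C/EBP proteins on a composite DNA element, the C/EBP-ATF response element (CARE), and raises genes for amino acid uptake, tRNA charging and further stress factors. Much of its control is on translation, which RNA levels do not show. In liver the branch is also known for the secretion of FGF21.

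Total RNA of whole liver was hybridised to Affymetrix arrays, 1 for each animal, from 3 C57Bl/6J mice, 6 to 8 weeks old, in each of 4 groups. The groups were control wild type, control Aag knock-out, wild type given methyl methanesulfonate (MMS), and Aag knock-out given MMS. MMS, a DNA-methylating agent, was given by intraperitoneal injection as a single dose of 75 mg/kg, and livers were taken after 6 hours. Aag, also named Mpg, is the glycosylase that removes alkylated bases at the start of base excision repair. The sources used here do not say whether controls were injected or at what time of day livers were collected. The labels do not describe the knock-out allele beyond its name.

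Stretches of promoter are shown because the letters of the CARE core were found in some of the 10 genes and not in others. The core was searched as TGATGNAA, or TTNCATCA on the other strand, in windows of 300 bases from 250 before to 50 after each annotated start (RefSeq, GRCm38.p6). The windows of Atf3, Nupr1, Trib3 and Fgf21 held 1 match each, all reading TTNCATCA along the gene, and those of the other 6 genes held none. The cAMP response element TGACGTCA, the same letters on both strands and with no overlap with a CARE match, was found in the Ppp1r15a window alone. Sequences run 5′ to 3′ along the gene with the match in capitals.
Atf3: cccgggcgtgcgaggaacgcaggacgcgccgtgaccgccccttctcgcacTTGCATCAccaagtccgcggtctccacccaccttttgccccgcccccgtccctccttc
Nupr1: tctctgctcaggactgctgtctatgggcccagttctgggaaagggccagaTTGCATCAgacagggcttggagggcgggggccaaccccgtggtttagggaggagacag
Fgf21: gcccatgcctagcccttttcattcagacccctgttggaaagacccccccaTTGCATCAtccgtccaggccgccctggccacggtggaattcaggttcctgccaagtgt
Trib3: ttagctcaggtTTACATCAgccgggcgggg
Ppp1r15a: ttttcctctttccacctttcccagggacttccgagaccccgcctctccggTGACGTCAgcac

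These stretches lie on the minus strand, at chr1:191183386-191183493 for Atf3, chr7:126625523-126625630 for Nupr1, chr7:45615572-45615679 for Fgf21, chr2:152344028-152344057 for Trib3 and chr7:45526269-45526330 for Ppp1r15a. The matches of Atf3 and Nupr1 both begin at base -110 from the start and that of Fgf21 at base -139, all upstream of the gene. The Trib3 match begins at base 15 after the start, within the transcribed region, and the Ppp1r15a match ends at base -5. Of all 32851 windows in the RefSeq table, 1304 (3.97%) held the CARE core and 588 (1.79%) the cAMP response element. A match is a string of letters and not a measured site, and no protein binding was measured here.

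Across the series, array medians ran from 7.42 to 7.75 on the log2 scale and pairs of arrays correlated at 0.962 to 0.995. For 9 of the 12 arrays the closest array belonged to the same group. The exceptions were control knock-out array 3, MMS knock-out array 3 and MMS wild-type array 1. At 1 of the 2 Mpg probe sets every knock-out array (4.95 to 5.75) lay below every wild-type array (6.21 to 6.94). At the other the genotypes overlapped (7.36 to 8.18 against 7.84 to 8.50). Of 10 hepatocyte markers 7 were measured, and the log2 of their summed level was 16.70 to 16.94 over all arrays. In bulk tissue, fewer cells of a type and less RNA per cell cannot be told apart. Values below are log2 expression, changes are differences of log2 means ± SE from limma fitted to all 12 arrays, and "called" means an adjusted p under 0.05 over all 22626 probe sets. A p-value here weighs a difference of means against the spread between animals.

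After MMS, 4 of the 10 genes were called higher in wild-type liver (Nupr1, Trib3, Atf3 and Fgf21) and 1 lower (Ddit4), while 5 were not called. Of all probe sets, 1.99% were called higher and 4.45% lower in that comparison. In Aag knock-out liver 1 gene rose (Nupr1), none fell and 9 were not called, against 0.747% of all probe sets called higher and 0.76% lower. The median change over the 10 genes was 0.50 in wild type and 0.23 in knock-out liver, against -0.06 over all 12393 genes in each. In wild type 9 of the 10 changes were positive and in knock-out liver 6 were. Averaged over both genotypes, Nupr1, Atf4 and Atf5 were called higher and none lower (background 4.61% higher and 6.66% lower). With both knock-out arrays numbered 3 left out, a choice made after seeing the data, 5 genes were called in wild type and 4 in knock-out liver (Nupr1, Atf4, Atf5 and Ppp1r15a). In that fit 2222 of all 22626 probe sets were called in wild type and 3326 in knock-out liver, against 1458 and 341 with all arrays. A further quantile normalization turned the sign of the uncalled knock-out changes of Atf3, Ddit3 and Fgf21 and left the wild-type signs as they were. Each array's values are drawn gene by gene in the panels of expression by group.

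**Figure D1:**
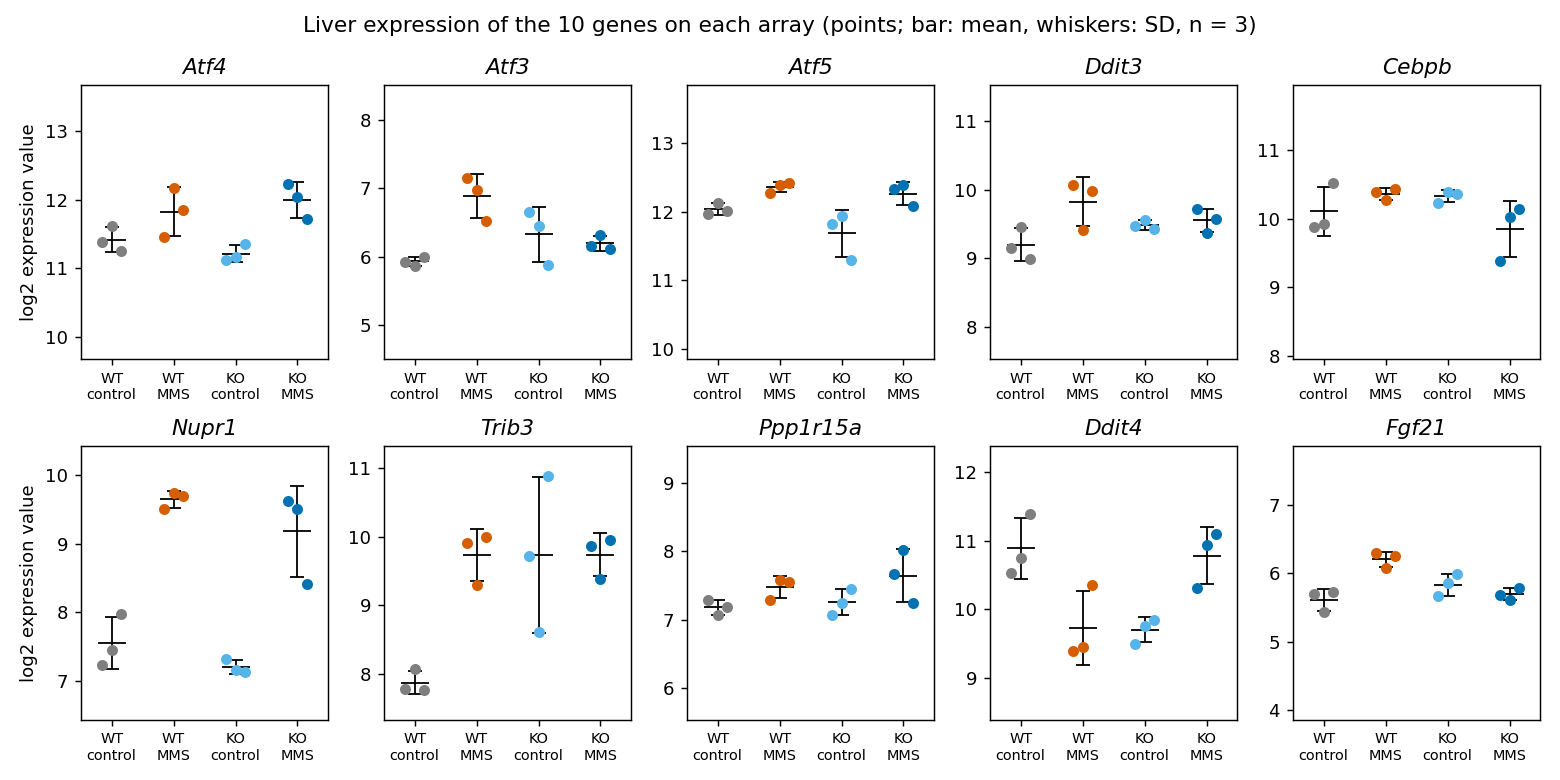
Log2 expression (y axis, each panel spanning 4 log2 units) of the 10 genes in the 4 groups (x axis), with a point per array, a bar at the mean and whiskers of 1 SD (n = 3). Nupr1 stood higher after MMS in both genotypes, Trib3 was already high in control knock-out liver, and Ddit4 changed in opposite directions in the 2 genotypes.

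Atf4 is the factor at the head of the branch. Its wild-type values were 11.38, 11.61 and 11.25 in control liver and 11.46, 12.16 and 11.85 after MMS. The knock-out values were 11.12, 11.16 and 11.35 in control liver and 12.23, 12.03 and 11.72 after MMS. The groups overlapped in wild type and did not in knock-out liver. Neither change was called by limma: 0.41 ± 0.19 in wild type (adjusted p = 0.230) and 0.78 ± 0.19 in knock-out liver (adjusted p = 0.0617). Over 22 alternative fits the wild-type change was called in 0 and the knock-out change in 8 (adjusted p of 0.00468 to 0.231). Averaged over the genotypes Atf4 RNA rose by 0.60 ± 0.14, or 1.51-fold (adjusted p = 0.0200). That call ended without control wild-type array 1 or 3, control knock-out array 1 or MMS knock-out array 1 (adjusted p = 0.0544, 0.0524, 0.0539 and 0.0536). A second probe set changed by 0.29 in wild type and 0.38 in knock-out liver, uncalled. The remaining one, at 5.18 to 6.39 over all arrays, changed by 0.24 and -0.39, also uncalled. Averaged over the genotypes, these other probe sets changed by 0.33 (adjusted p = 0.0637) and -0.07 (adjusted p = 0.772). The average was thus called at the first Atf4 probe set alone.

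Atf5, a close relative of ATF4 that is itself a target of the branch, read 11.97, 12.13 and 12.01 in control wild-type liver and 12.27, 12.39 and 12.41 after MMS. In knock-out liver it read 11.81, 11.94 and 11.29 without and 12.32, 12.39 and 12.08 with MMS. The treated and control groups were apart in both genotypes, with the lowest value in control knock-out array 3. The change was 0.32 ± 0.17 in wild type (adjusted p = 0.281) and 0.58 ± 0.17 in knock-out liver (adjusted p = 0.0809). Over 22 alternative fits the wild-type change was called in 1 and the knock-out change in 5. The average over both genotypes rose by 0.45 ± 0.12, or 1.37-fold (adjusted p = 0.0339). This average was called in 4 of the 12 fits that left out 1 array, those without control knock-out array 2 or 3, MMS wild-type array 1 or MMS knock-out array 3. In the other 8 the adjusted p was 0.0553 to 0.0876.

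Atf3, an early stress factor that mostly represses, was low in control wild-type liver (5.92, 5.87 and 6.00) and higher in every MMS-treated wild-type liver (7.14, 6.98 and 6.52). The rise was 0.95 ± 0.21 on the log2 scale (adjusted p = 0.0238). No fold is given, since without detection calls readings this low could not be told from background. In knock-out liver the values were 6.65, 6.45 and 5.88 in controls and 6.16, 6.32 and 6.11 after MMS, which overlapped (-0.13 ± 0.21, adjusted p = 0.721). The wild-type call ended without control wild-type array 1, 2 or 3 (adjusted p = 0.0929, 0.0637 and 0.0751) or MMS wild-type array 1 or 2 (0.0706 and 0.0701), while the change stayed at 0.82 to 1.13.

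Ddit3, which encodes CHOP, a factor linked to cell death under lasting stress, gave 9.15, 9.46 and 8.99 in control wild-type liver and 10.07, 9.41 and 9.99 after MMS. MMS-treated array 2 lay within the controls, so the groups overlapped. The change of 0.62 ± 0.19 was not called (adjusted p = 0.0723). It was called in 4 of 22 alternative fits, over which the adjusted p was 0.00686 to 0.238. Knock-out values were close together, at 9.47, 9.56 and 9.43 in controls and 9.72, 9.37 and 9.57 after MMS (0.07 ± 0.19, adjusted p = 0.844).

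Cebpb, a C/EBP partner of ATF4 that is abundant in liver, read 9.88, 9.93 and 10.52 in control wild type and 10.39, 10.27 and 10.43 after MMS. Those groups overlapped (0.25 ± 0.21, adjusted p = 0.511). In knock-out liver it read 10.23, 10.40 and 10.36 in controls and 9.39, 10.02 and 10.14 after MMS. All 3 treated knock-out values lay below the controls, by 0.48 ± 0.21 on average, which was not called (adjusted p = 0.195). Its second probe set differed by 0.10 in wild type and -0.34 in knock-out liver.

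Nupr1, a small stress-induced chromatin cofactor, had the greatest MMS response of the 10 genes in both genotypes. Wild-type values were 7.23, 7.45 and 7.97 in controls and 9.50, 9.74 and 9.70 after MMS. Knock-out values were 7.32, 7.15 and 7.13 in controls and 9.62, 9.51 and 8.41 after MMS. Every treated array exceeded every control array, with MMS knock-out array 3 the lowest of the treated. The rise was 2.10 ± 0.29 in wild type, or 4.28-fold (adjusted p = 0.00457), and 1.98 ± 0.29 in knock-out liver, or 3.95-fold (adjusted p = 0.0264). The second probe set rose by 2.00 and 1.71 (adjusted p = 0.00533 and 0.0327).

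The wild-type Nupr1 call held in all 22 alternative fits. The knock-out call ended without control knock-out array 1 or 2 (adjusted p = 0.134 and 0.0899), MMS knock-out array 1 or 2 (0.109 and 0.0935) or control wild-type array 2 (0.0533), and with the spread taken from the knock-out arrays alone (0.157). The difference between the genotypes' responses was -0.12 ± 0.41, with a 95% interval of -1.02 to 0.78 (adjusted p = 0.903).

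Trib3, a pseudokinase that restrains ATF4 and CHOP activity, read 7.78, 8.07 and 7.77 in control wild-type liver and 9.91, 9.31 and 10.002 after MMS. This rise of 1.86 ± 0.45, or 3.64-fold, was called (adjusted p = 0.0352). In knock-out liver the controls already read 9.72, 8.61 and 10.89, and the treated livers 9.87, 9.38 and 9.96. All 3 control knock-out values lay above all 3 control wild-type values and spread widely (SD 1.14 against 0.17). The knock-out change had a 95% interval of -0.98 to 0.98 (SE 0.45, adjusted p = 0.997). The control knock-out livers exceeded control wild type by 1.87 ± 0.45, which was not called (adjusted p = 0.402).

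At the second Trib3 probe set control wild type was again the lowest group, with changes of 1.52 ± 0.46 in wild type (adjusted p = 0.0741) and 0.16 in knock-out liver, and 1.58 between control genotypes. The wild-type call at the first probe set ended without control wild-type array 1, 2 or 3 (adjusted p = 0.12, 0.0652 and 0.115) or MMS wild-type array 1, 2 or 3 (0.0887, 0.0571 and 0.0927), with the change at 1.73 to 2.08.

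Ppp1r15a encodes GADD34, the phosphatase subunit that removes the phosphate from eIF2α and so ends the response. Its wild-type values were 7.29, 7.07 and 7.19 in controls and 7.29, 7.58 and 7.55 after MMS. The knock-out values were 7.07, 7.25 and 7.45 in controls and 7.67, 8.02 and 7.24 after MMS. The groups overlapped or touched in both genotypes, and neither change was called (0.29 ± 0.19, adjusted p = 0.386, and 0.39 ± 0.19, adjusted p = 0.231). Over 21 alternative fits the wild-type change was called in 0 and the knock-out change in 3. Without both knock-out arrays numbered 3 the knock-out change was 0.69 (adjusted p = 0.032).

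Ddit4 encodes REDD1, an inhibitor of mTORC1 that also responds to glucocorticoids and hypoxia. Wild-type values were 10.53, 10.75 and 11.39 in controls and 9.39, 9.44 and 10.35 after MMS, a called fall of -1.16 ± 0.31, or 2.24-fold lower (adjusted p = 0.0474). Knock-out values were 9.49, 9.76 and 9.85 in controls and 10.31, 10.94 and 11.09 after MMS, a change of 1.08 ± 0.31 in the other direction that was not called (adjusted p = 0.0793). The knock-out change was called in 2 of 22 alternative fits. In neither genotype did treated and control values overlap. Control knock-out livers lay below control wild type by 1.19 ± 0.31 (adjusted p = 0.422), again without overlap.

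The wild-type Ddit4 call was near the threshold and was made in 3 of 12 fits that left out 1 array, those without MMS wild-type array 3 or MMS knock-out array 1 or 3. Without control wild-type arrays 1, 2 and 3 the adjusted p was 0.0879, 0.0831 and 0.172, and without MMS wild-type arrays 1 and 2 it was 0.125 and 0.138. Without control knock-out arrays 1, 2 and 3 or MMS knock-out array 2 it was 0.0628, 0.0677, 0.0519 and 0.0594. The change stayed negative, at -1.47 to -0.91. The call also ended with quantile normalization (-1.08, adjusted p = 0.0504), median centring (-0.97, 0.0586), the wild-type arrays alone (0.0804) and array weights (-0.66, 0.0911).

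Fgf21, a hormone secreted by the liver in fasting and under stress, read 5.69, 5.43 and 5.73 in control wild-type liver and 6.29, 6.08 and 6.25 after MMS, which did not overlap. The rise was 0.59 ± 0.13 on the log2 scale (adjusted p = 0.0261). As for Atf3 no fold is given, and the control readings lie within the range of the lower Mpg probe set in knock-out arrays (4.95 to 5.75). Knock-out values were 5.66, 5.86 and 5.98 in controls and 5.68, 5.62 and 5.79 after MMS, and overlapped (-0.14 ± 0.13, adjusted p = 0.528). The wild-type call ended without control wild-type array 1, 2 or 3 (adjusted p = 0.0851, 0.0819 and 0.0669) or MMS wild-type array 1 or 3 (0.0704 and 0.0714). It also ended with a trended robust variance (0.0551) or the wild-type arrays alone (0.0531).

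The 4 genes called higher in wild-type liver are those whose windows held the CARE core, a match that was not tested. Of these, only Nupr1 was called in knock-out liver. The wild-type calls of Trib3, Atf3 and Fgf21 each ended without some single arrays. The low readings of Atf3 and Fgf21 could not be told from background. Among 224 genes called higher in wild type that had a window in the RefSeq table, 9 (4.02%) held a CARE core, against 309 of 9887 measured genes with a window (3.13%). Among 94 called higher in knock-out liver 3 did (3.19%). DNA outside the windows of 300 bases was not searched in any gene. The match and these shares are a description. The 10 genes were chosen as factors and targets of this branch, with earlier results of these data known.

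**Figure D2:**
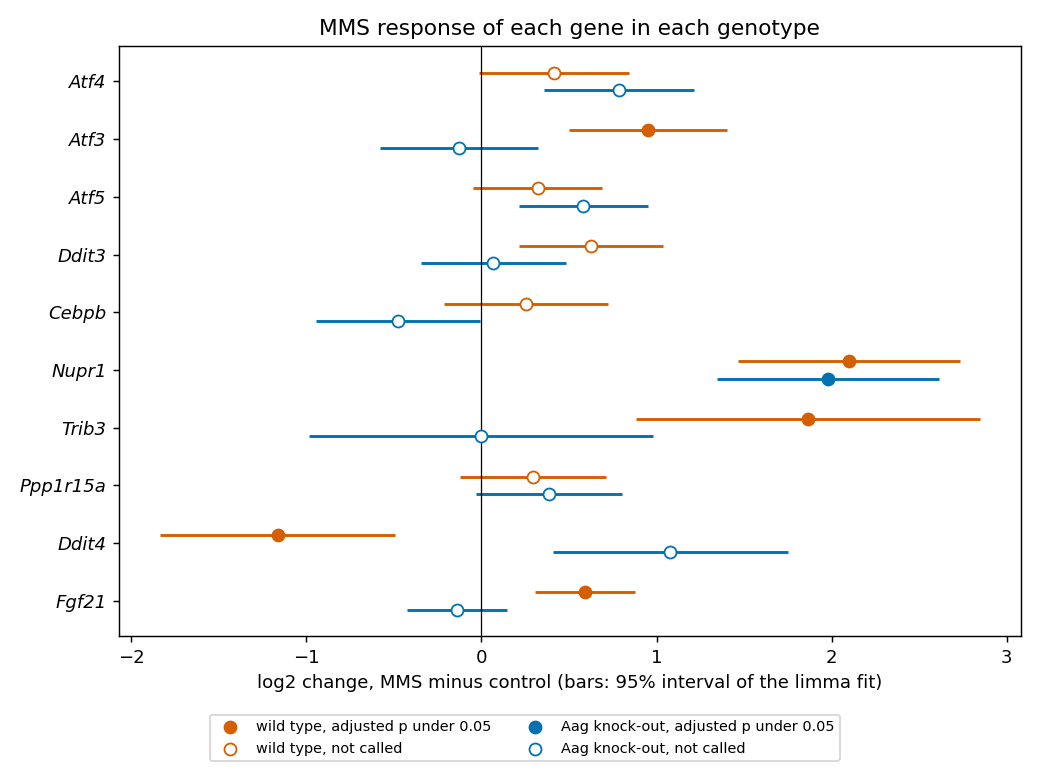
Log2 change after MMS (x axis) of the 10 genes (y axis) in wild-type and knock-out liver, with 95% intervals from limma and filled points for called changes. The intervals of Nupr1 lie above 0 in both genotypes, and those of Ddit4 lie on opposite sides of 0.

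Whether the response depended on Aag was asked by the difference between the 2 genotypes' changes, knock-out minus wild type. No member was called by limma, and of all 22626 probe sets 0.0% were called, with 4009 at an unadjusted p under 0.05. Among the 10 genes 5 reached that unadjusted level. Ddit4 differed by 2.24 ± 0.43, with a 95% interval of 1.29 to 3.19 (adjusted p = 0.0923). Atf3 differed by -1.08 ± 0.29 (adjusted p = 0.143), Fgf21 by -0.73 ± 0.18 (0.131), Trib3 by -1.87 ± 0.63 (0.195) and Cebpb by -0.73 ± 0.30 (0.246). The differences of Ddit3 (-0.56 ± 0.26), Atf4 (0.37 ± 0.27), Atf5 (0.26), Nupr1 (-0.12 ± 0.41) and Ppp1r15a (0.10, of opposite sign under both other scalings) did not reach it. Without control knock-out array 3 the Atf3 difference was called (-1.30, adjusted p = 0.0466). The 2 responses share no array.

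Between control livers of the 2 genotypes 0 members were called, against 0.0398% of all probe sets. Trib3 and Ddit4 had an unadjusted p under 0.05, as did 1620 of all 22626 probe sets. Without overlap between genotypes, Trib3 was higher and Ddit4 and Atf5 were lower in control knock-out liver, where 18.3% of all probe sets did not overlap. Between MMS-treated livers 0 members were called, against 0.0177%. Atf3, Cebpb, Fgf21 and Ddit4 had an unadjusted p under 0.05, as did 4156 of all probe sets. Atf3, Fgf21 and Cebpb were lower in MMS-treated knock-out liver without overlap, by 0.68 ± 0.21, 0.51 ± 0.13 and 0.51 ± 0.21 (17.6% of all probe sets did not overlap). Of the MMS comparisons, 31.8% of probe sets in wild type and 26.7% in knock-out liver did not overlap, against 6 and 5 of the 10 genes.

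The list of genes upstream of ATF4 held eIF2α kinases, eIF2 and eIF2B subunits, phosphatase subunits and regulators of these. It showed few called changes. Of 19 listed, 17 were measured, and none was called in either genotype. Eif2ak3, the kinase PERK, had the smallest p in wild type (0.84 ± 0.25, adjusted p = 0.0704). In knock-out liver it was Eif2b5, a catalytic subunit of the eIF2B exchange factor (0.63 ± 0.15, adjusted p = 0.0589). Averaged over genotypes, Eif2b1 (0.63 ± 0.15) and Impact (0.53 ± 0.15), an inhibitor of the kinase GCN2, were called higher. Eif2s3x, a subunit of eIF2, was called lower (-0.50 ± 0.12).

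Of 25 other bZIP factors 22 were measured, and 2 rose in wild type. Atf6, the factor of another arm of the unfolded protein response, rose by 0.87 ± 0.20 (adjusted p = 0.0310). Fosl2, an AP-1 subunit, rose by 0.65 ± 0.16 (adjusted p = 0.0416). In knock-out liver none was called, although Atf6 changed by the same 0.87 ± 0.20 (adjusted p = 0.0552). Averaged over genotypes Cebpg, a C/EBP partner of ATF4, was also called higher (0.40 ± 0.10).

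Of 45 other ATF4 targets 41 were measured. In wild type 5 were called higher and none lower, against 1.99% and 4.45% of all probe sets. Wars (0.85 ± 0.13, adjusted p = 0.00737), Yars (0.54 ± 0.14) and Sars (0.57) encode tRNA synthetases. Herpud1 (1.00 ± 0.22, adjusted p = 0.0242) acts in the disposal of misfolded endoplasmic reticulum proteins and Map1lc3b (0.42 ± 0.11) in autophagy. In wild type 33 of the 41 changes were positive with a median of 0.26, and in knock-out liver 24 were, with a median of 0.03. One gene was called in knock-out liver, the autophagy receptor Sqstm1 (0.70 ± 0.14, adjusted p = 0.0466). The threonyl-tRNA synthetase gene Tars had a change of 0.70 ± 0.16 there (adjusted p = 0.0566). Averaged over genotypes, 6 of the 41 were called higher and 1 lower, against 4.61% and 6.66% of all probe sets. The 4 lists are set side by side in the plot of changes by list.

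**Figure D3:**
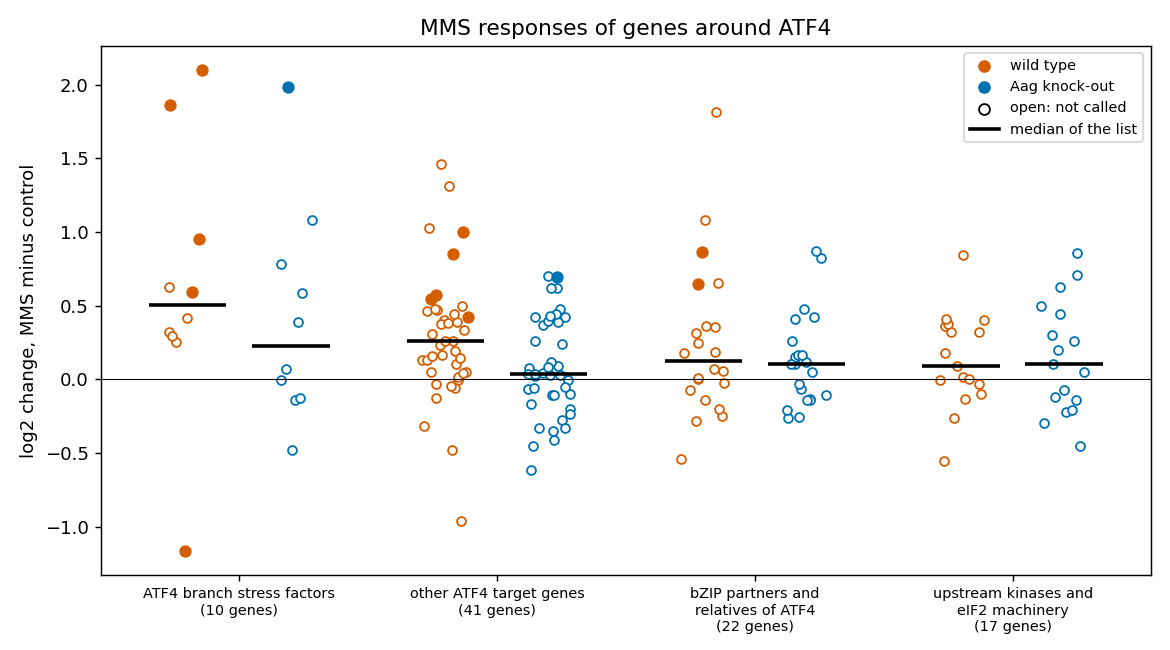
Log2 change after MMS (y axis, treated minus control) of each gene in 4 lists (x axis: the 10 genes described, 41 other ATF4 targets, 22 bZIP partners and 17 upstream genes), wild type in orange and knock-out in blue. Filled points were called and black bars are medians, which for the 10 genes were 0.50 in wild type and 0.23 in knock-out liver.

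Genes of other programmes moved with the same groups. Of 15 measured clock genes, 5 were called higher and 3 lower after MMS in wild type, and 3 higher in control knock-out than in control wild-type liver (Nr1d1, Nr1d2 and Dbp). Dbp, a clock output factor, read 8.14 to 8.58 in control wild type, 12.49 to 12.77 in MMS wild type, 10.64 to 13.04 in control knock-out and 12.16 to 12.83 in MMS knock-out liver. Like Trib3, it was low in control wild-type liver alone. The part of the clock in the Trib3 and Ddit4 values was not tested, and the time of collection cannot be told apart from the groups.

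Of 14 measured fasting and glucocorticoid genes, 4 were called lower after MMS in wild type. These were Pdk4, Ppargc1a, Tsc22d3 and G6pc, at -1.77, -1.62, -1.85 and -1.38. Of the 14 changes 7 were positive, and Fkbp5, another glucocorticoid target, read 8.16 to 9.05 in controls and 9.32 to 10.38 after MMS (1.42, adjusted p = 0.0775). None was called in knock-out liver, and averaged over genotypes 2 were called higher and 3 lower. Tat, an amino acid catabolic enzyme induced by glucocorticoids, read 11.71 to 12.07 in control wild type, 10.96 to 11.51 in MMS wild type, 11.02 to 11.24 in control knock-out and 11.65 to 12.31 in MMS knock-out liver. Tat is named after its values were seen, because its ranges are high and low in the same groups as those of Ddit4. The Fkbp5 ranges are not, nor are those of the 4 genes called lower. Pdk4 was lower in MMS knock-out (10.07 to 10.53) than in control knock-out liver (10.87 to 11.03). So was Ppargc1a (8.48 to 9.01 against 9.05 to 9.89). Tsc22d3 and G6pc overlapped between those groups, where Ddit4 was higher after MMS. The part of feeding state or glucocorticoids in Ddit4 and Fgf21 was not tested.

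Markers of other cells also moved. Of 9 measured neutrophil markers 5 changes were positive after MMS in wild type, with a median of 0.0075, and 3 were called higher (S100a8, S100a9 and Lcn2). The log2 summed level, to which those 3 contribute most, was 10.83 to 12.03 in wild-type controls and 12.67 to 13.50 after MMS. In knock-out liver the sum was 10.35 to 10.58 in controls and 10.81 to 12.52 after MMS. Of 15 pancreatic acinar markers 1 was called higher in wild type, where 9 changes were positive with a median of 0.29. In knock-out liver 14 were positive with a median of 1.09, and 0 were called. The sum was 11.65 to 13.68 in MMS knock-out liver against 11.17 to 11.40 in its controls. It was 11.54 to 12.27 in MMS wild type against 11.07 to 11.64 in its controls. Among endothelial, stellate and lymphocyte markers 4 of 8, 3 of 8 and 3 of 7 were called lower in wild type, and of 10 macrophage markers 1 was called higher and 1 lower. At the array's control probe sets for Gapdh, whose signal along the transcript reflects RNA integrity, the 3′ minus 5′ signal was 0.67 to 1.55 in MMS knock-out and 1.62 to 1.93 in control knock-out liver. It was 0.85 to 1.89 in MMS wild type and 1.50 to 1.59 in control wild type. At the beta-actin control probe sets the knock-out groups overlapped, at 2.35 to 3.37 after MMS and 3.05 to 3.41 in controls. The beta-actin values in wild type were 3.15 to 3.41 after MMS and 3.05 to 3.29 in controls. The part of these cells and of RNA quality in the changes of Atf3, Nupr1 and the other genes was not tested.

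For each gene the 3 genes most like it by Pearson correlation over the 12 arrays were taken. Group means were not removed, so these correlations include the differences between the 4 groups. Closest to Nupr1 were Slc30a5 (r = 0.966), Scnm1 (0.956) and Aen (0.956), and closest to Trib3 were Jade1 (0.958), Bri3 (0.957) and Maff (0.950). Closest to Atf4 were Rsl1d1 (0.978), Trmt10c (0.973) and Mettl6 (0.971). Closest to Ddit4 were Chmp6 (0.931), Enpep (0.907) and Thsd1 (0.900), and closest to Atf3 were Saa3 (0.924), Csl (0.916) and Lhx3 (0.893). For the other 5 genes the nearest were Cant1 for Atf5 (0.911), Ssbp1 for Ddit3 (0.930), Chodl for Cebpb (0.860), E430018J23Rik for Ppp1r15a (0.956) and Tbc1d15 for Fgf21 (0.917). None of the genes named here was another of the 10.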

How the data were processed

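The authors' deposited values are log2 expression levels of probe sets, made with RMA, which corrects background, normalizes arrays and summarises probes, per the submitters' processing notes. The log base was taken from the range of the values. The sources used here do not give the RMA version or the set of arrays it was run on. Of 22690 probe sets, 64 controls were set aside. Platform annotation gave 20380 probe sets 1 symbol, 691 several and 1555 none, and 20351 symbols were updated through a RefSeq table (GRCm38.p6).

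A mean for each of the 4 groups was fitted to all 12 arrays with limma 3.58.1 (R 4.3.3), using moderated variances and Benjamini-Hochberg adjustment over 22626 probe sets at 0.05. The fit was tested on simulated data. Non-member lists were named by at most 4 genes with the smallest p per comparison, and Sars and some genes of other lists were added to complete counts. The members and lists were chosen with earlier results of these data known. Alternatives were filters, scaling, variance models, weights for arrays, a block for animal number, probe set means and left-out arrays.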

Additional observations from a re-analysis of the deposited data

Results flagged for a closer look

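Ddit4 moved in opposite directions in the 2 genotypes, with all 3 treated wild-type arrays below the controls and all 3 treated knock-out arrays above theirs. It was flagged for this pattern, which is therefore no separate support. Of all probe sets 31.8% in wild type and 26.7% in knock-out liver did not overlap, in either direction. The knock-out rise was not called by limma (adjusted p = 0.0793). Control knock-out values (9.49 to 9.85) lay below control wild-type values (10.53 to 11.39). The responses differed by 2.24 on the log2 scale, knock-out minus wild type, which limma did not call (adjusted p = 0.0923). The difference was called in 2 of 21 alternatives. These were an overall mean filter of 8 (adjusted p = 0.0455) and array weights (1.61, adjusted p = 0.0366). With array weights 2344 of all probe sets were called for the difference of responses. The Ddit4 difference was called in 0 of the 12 fits without single arrays. Its adjusted p reached 0.225 over the alternatives.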

How the results depend on the processing

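Of the 10 genes, 5 were called in wild type. That count was 3 with the compared groups alone and 1 to 5 when single arrays were left out. In knock-out liver the count of 1 became 2 with a group mean filter of 6, 4 with an overall mean filter of 8, 3 with a trended robust variance, 5 with array weights, 0 with the groups alone, and 0 to 4 without single arrays. It was 4 without both knock-out arrays numbered 3, chosen after seeing the data. Between treated genotypes the count of 0 became 1 with array weights and 1 without those arrays. All probe sets called there rose from 4 to 1482 and 1353 in the same settings. For the difference of responses the member count of 0 became 1 with the mean filter of 8, 4 with array weights, 1 without those arrays, and 0 to 1 without single arrays. All probe sets called there rose from 0 to 52, 2344 and 514 in the first 3 of these settings, and were 0 to 158 without single arrays. For the average response the count of 3 became 5 with quantile normalization, 7 with array weights, 5 without those arrays, and as few as 1 without single arrays. All probe sets called there went from 2551 to 2861, 7459 and 4188, and to as few as 1233, in these settings. Between controls it was 0 in every setting. No called change of these genes reversed. The cause was not tested.

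Animal numbers are not said to mark pairs, and deviations of same-numbered arrays correlated at 0.18, -0.11 and 0.18 in wild type and 0.40, 0.013 and 0.28 in knock-out liver. With the number as a replicate block, 5 genes were called in wild type and 0 in knock-out liver (Nupr1 1.98, adjusted p = 0.0554).

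Over all probe sets, 1458 were called in wild type, 274 to 1798 without single arrays and 4873 with array weights. In knock-out liver 341 were called, 0 to 3264 without single arrays, 19 with the block, 0 with the groups alone and 5790 with array weights. The knock-out count was 987 with the group mean filter of 6 and 1650 with the overall mean filter of 8. A trended robust variance gave 1029, and leaving out both knock-out arrays numbered 3 gave 3326. After centring of arrays on their medians, the typical probe set changed by a median of 0.14 in wild type instead of -0.05, and by -0.13 instead of -0.06 in knock-out liver. Without detection calls, low readings such as those of Fgf21 and Atf3 could not be told from background.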
